A study of Mus musculus with 22 samples.

Results

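Interferon regulatory factors (IRFs) are DNA-binding proteins that switch on genes of the interferon response. Irf3 and Irf7 are activated when a cell senses viral nucleic acid and then induce the type I interferon genes. Irf9 is the DNA-binding part of the complex that carries the signal from the type I interferon receptor to its target genes. Irf1 is an activator induced by interferon, and Irf2 binds the same DNA element and mostly opposes it. Irf5 promotes inflammatory cytokine genes, and Irf4 and Irf8 are best known from lymphocytes and myeloid cells. In adipocytes Irf4 is known as a factor that responds to fasting and takes part in lipolysis. The DNA element bound by most of these factors is the interferon-stimulated response element (ISRE), and the gamma-activated sequence (GAS) is an element of genes that respond to interferon gamma.

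The 8 genes Irf1, Irf2, Irf3, Irf4, Irf5, Irf7, Irf8 and Irf9, of 21884 protein-coding genes, were followed in ATAC-seq peak lists from mouse adipocyte nuclei. In ATAC-seq a transposase cuts and tags DNA where chromatin is open. A locus was the GENCODE vM21 gene span on GRCm38 with 20 kb added on each side. Peaks of all 22 libraries that overlapped by at least 1 bp were merged into 104657 union regions, of which 22 touched the 8 loci.

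The nuclei came from frozen epididymal adipose tissue of AdipoERCre x NuTRAP mice on a C57BL/N background. In these mice a tamoxifen-inducible Cre driven by the adipocyte promoter Adipoq turns on a reporter that puts biotin on the nuclei, and every group, controls included, carried both alleles. Chow controls were C (18 weeks old, n = 3), CC_s (26 weeks, n = 3), CC_l (31 weeks, n = 2) and CCC (39 weeks, n = 2). Obese groups were H (18 weeks old after 12 weeks of high-fat diet, n = 3) and HH (31 weeks old after 25 weeks of high-fat diet, n = 3). The weight loss groups then received chow for 8 weeks, which gives HC at 26 weeks of age after 12 weeks of high-fat diet (n = 3) and HHC at 39 weeks after 25 weeks of high-fat diet (n = 3). According to the study's methods, the chow of the last weeks also differed from the earlier control diet, in controls as well. Each obese or weight loss group was compared with the control of its age. The short and long arms were separate sets of libraries, so the duration of the diet and the set cannot be told apart. Weaker opening in all nuclei and loss of opening in some nuclei cannot be told apart in these bulk libraries.

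The lists held 40528 to 60523 peaks per library and covered 128 to 299 Mb. They hold no read counts, so depth is unknown. The median of the peaks' maximum signal divided by the library's lowest ranged from 6.82 to 8.92 in C, from 4.70 to 6.40 in H, from 7.30 to 7.42 in CC_s and from 2.43 to 6.50 in HC. It ranged from 4.67 to 7.30 in CC_l, from 3.75 to 6.20 in HH, from 3.67 to 8.20 in CCC and from 2.25 to 6.42 in HHC. It was thus lower in every H library than in every C library and in every HC library than in every CC_s library, and its part in the results below was not tested. All 12 adipocyte markers (Adipoq, Plin1, Lep, Pparg and others) had a promoter peak in every library. Of 12 macrophage markers 3 to 8 per library had one, with Fcgr1 in no library and Adgre1, Itgam, C1qa and Ptprc in at most 2, while Cd68, Fcer1g and Cd14 had one in all 22 and Csf1r in 18. Of 8 dendritic cell markers 1 or 2 had one, and Flt3, Siglech, Batf3, Xcr1 and Cd209a had none in any library. Of 12 lymphocyte markers 1 to 4 had one, and Cd3e, Cd4, Cd8a, Ncr1 and Cd2 had none. Of 12 endothelial and stromal markers 2 to 10 had one, and their mean promoter signal was 14.99 to 15.96 in HH against 14.86 to 14.94 in CC_l, with 10 of the 12 in HH 1. It was 15.22 to 15.38 in HC against 14.81 to 15.23 in CC_s, and 14.96 to 15.71 in HHC against 14.83 to 15.07 in CCC. The part of these shifts in the HH, HC and HHC results was not tested. HHC 3 stood apart in its adipocyte markers, with a mean promoter signal of 18.55 against 19.62 to 20.30 in the other 21 libraries, and 9 of the 12 endothelial and stromal markers had a peak in it.

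6 windows of the mouse genome are shown because the results below turn on them. They are the 300 bases around the peak summits upstream of Irf2 and downstream of Irf4, and the RefSeq promoters (250 bases before to 50 after the start) of Irf1, Irf2, Irf4 and Irf8, all GRCm38 and plus strand. The Irf2 upstream window is chr8:46719892-46720191, at -19691 bp from the Irf2 start and in an intron of the noncoding gene Gm16675. The Irf4 downstream window is chr13:30785439-30785738, 36362 bp after the Irf4 start and in an exon of the noncoding gene Gm29675. The promoter windows are chr11:53769764-53770063 (Irf1, the first of its RefSeq starts), chr8:46739495-46739794 (Irf2), chr13:30748983-30749282 (Irf4) and chr8:120736108-120736407 (Irf8, the first of its starts). Capitals mark matches on either strand to the ISRE core GAAANNGAAA or to the GAS letters TTCNNNGAA, and no 2 matches overlapped.
Irf2 upstream summit: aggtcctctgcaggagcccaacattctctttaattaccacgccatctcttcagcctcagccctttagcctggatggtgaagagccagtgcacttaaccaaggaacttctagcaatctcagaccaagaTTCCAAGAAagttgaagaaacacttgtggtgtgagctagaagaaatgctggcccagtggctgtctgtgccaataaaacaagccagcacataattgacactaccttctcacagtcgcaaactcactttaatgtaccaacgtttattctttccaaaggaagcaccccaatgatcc
Irf4 downstream summit: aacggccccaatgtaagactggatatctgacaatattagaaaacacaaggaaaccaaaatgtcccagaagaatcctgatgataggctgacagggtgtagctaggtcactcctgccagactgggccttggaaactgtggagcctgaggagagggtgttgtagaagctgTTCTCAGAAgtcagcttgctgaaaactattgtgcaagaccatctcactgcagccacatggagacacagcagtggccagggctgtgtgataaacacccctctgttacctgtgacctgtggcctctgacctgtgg
Irf1 promoter: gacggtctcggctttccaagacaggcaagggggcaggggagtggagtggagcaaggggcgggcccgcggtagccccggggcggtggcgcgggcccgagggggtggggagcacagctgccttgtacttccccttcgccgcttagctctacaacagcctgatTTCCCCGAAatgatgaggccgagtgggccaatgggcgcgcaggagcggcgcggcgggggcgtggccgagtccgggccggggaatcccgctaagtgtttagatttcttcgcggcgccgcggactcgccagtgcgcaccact
Irf2 promoter: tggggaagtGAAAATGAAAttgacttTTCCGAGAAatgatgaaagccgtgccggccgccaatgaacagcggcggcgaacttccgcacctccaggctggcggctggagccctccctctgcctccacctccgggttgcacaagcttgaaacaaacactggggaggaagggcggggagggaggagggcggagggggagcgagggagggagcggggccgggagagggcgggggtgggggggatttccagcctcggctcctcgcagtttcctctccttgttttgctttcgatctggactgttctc
Irf4 promoter: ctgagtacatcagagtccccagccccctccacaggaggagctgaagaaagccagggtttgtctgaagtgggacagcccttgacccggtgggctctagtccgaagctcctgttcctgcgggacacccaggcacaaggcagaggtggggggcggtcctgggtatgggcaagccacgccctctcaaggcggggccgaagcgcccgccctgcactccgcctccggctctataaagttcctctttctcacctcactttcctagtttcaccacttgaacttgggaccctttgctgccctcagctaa
Irf8 promoter: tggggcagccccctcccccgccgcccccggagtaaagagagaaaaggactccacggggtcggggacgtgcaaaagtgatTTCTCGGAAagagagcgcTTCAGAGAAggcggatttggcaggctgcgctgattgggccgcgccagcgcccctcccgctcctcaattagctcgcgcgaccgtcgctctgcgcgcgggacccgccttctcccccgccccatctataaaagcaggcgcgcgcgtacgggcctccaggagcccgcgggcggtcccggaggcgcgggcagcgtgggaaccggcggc

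All 8 genes matched the RefSeq promoter table, with 11 promoters in all. The ISRE core was found in 1 of them, as GAAAATGAAA at bases 10 to 19 of the Irf2 promoter, and in 3.43% of all 32817 RefSeq promoters. GAS letters were found in 3 of the 11, those of Irf1, Irf2 and Irf8, and in 8.29% of all. The Irf8 promoter held the GAS letters at bases 80 to 88 and again at bases 98 to 106. In the summit windows GAS letters occurred upstream of Irf2 as TTCCAAGAA at bases 128 to 136 and downstream of Irf4 as TTCTCAGAA at bases 168 to 176. They occurred in 10.3% of 18524 such windows across the genome, and the ISRE core, which neither window held, in 3.61%. The AP-1 letters TGANTCA were in none of the printed windows, against 7.81% of RefSeq promoters and 9.16% of summit windows. A match is a description of the letters, and no binding was measured.

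The landscape of open chromatin differed widely between the members. Signal is given on 1 scale throughout, the log2 total signal of a peak (coverage summed over its bases) after each library was rank-mapped to a shared set of values. Regions outside a library's 30083 strongest sat at a floor of 14.01, and promoters outside its 12406 strongest sat at 14.30. A promoter was 2000 bp on each side of every annotated start, and its signal took in the whole of any peak that reached it, a neighbouring gene's included. The levels are not divided by length.

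Irf3, the sensor-activated factor, had the strongest promoter of the 8, with a median over the 22 libraries of 18.33 (range 17.08 to 19.67), which is the 96.1 percentile of coding genes. It lay in a single region of 141457 bp that also held the promoters of Bcl2l12, Prmt1, Nosip, Scaf1 and other genes, so its signal is not its own alone. Irf2 came next with a median of 17.76 (17.01 to 18.75), and Irf7 followed at 17.16 (14.30 to 17.86), in a region that also held the Phrf1 promoter. Neighbours in this order overlapped over the libraries.

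Irf8 had a median promoter signal of 16.60 (15.83 to 18.10), Irf1 of 16.38 (14.44 to 18.82) and Irf9 of 16.37 (15.67 to 18.57). These 3 spread over one another, and their medians lay at the 78.0, 73.9 and 73.7 percentiles. Irf4 was weaker at 15.48 (14.74 to 16.66), the 57.0 percentile. Irf5 sat at the floor in most libraries and had a promoter peak in 8 of 22, while Irf7 had one in 21 and the other 6 genes in all 22.

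**Figure D1:**
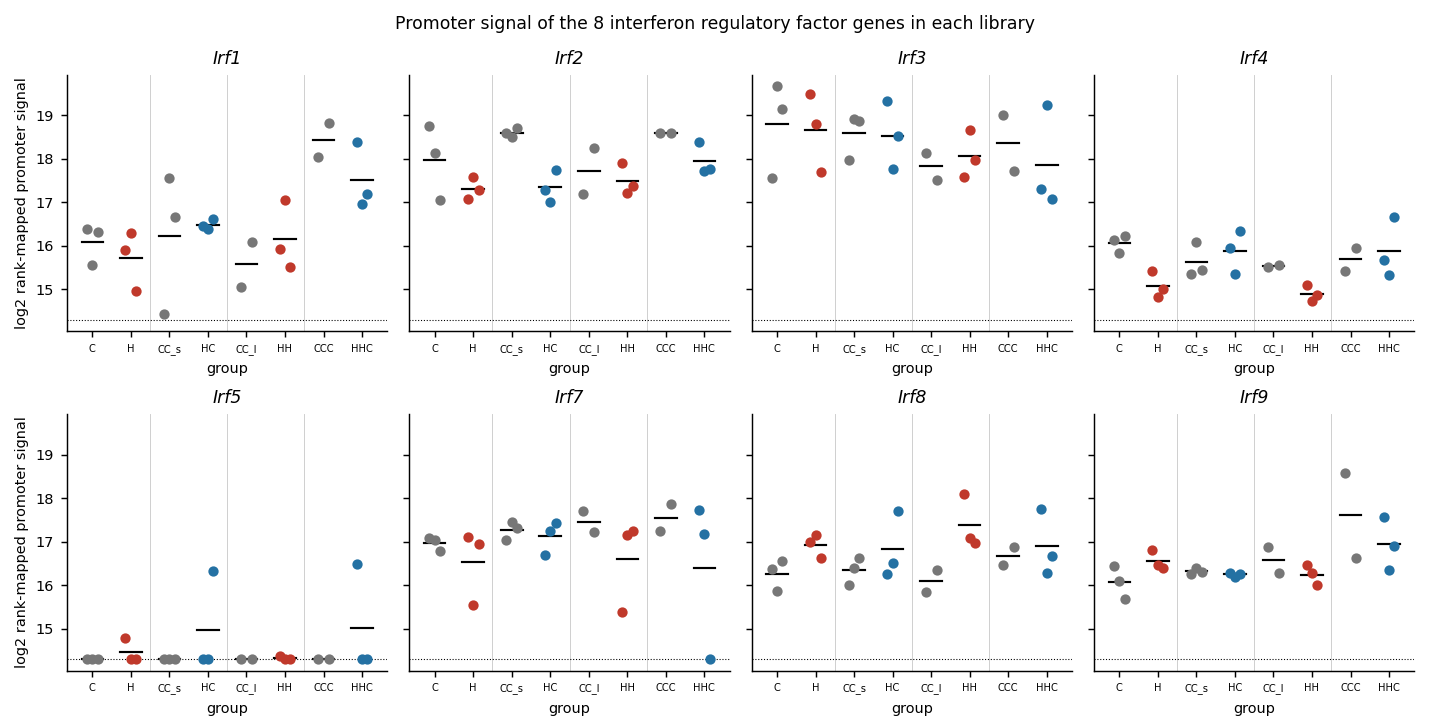
Rank-mapped log2 total signal of the promoter of each interferon regulatory factor gene (vertical axis) in each library, by group (horizontal axis); dots are libraries, bars are group means and the dotted line is the floor of 14.30. Irf3 has the highest median (18.33), and Irf5 leaves the floor in few libraries.

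By gene, the share of the locus that peaks covered had a median of 82.5% for Irf3, 61.3% for Irf1, 49.0% for Irf9, 35.2% for Irf7 and 34.3% for Irf2. It was 21.8% for Irf8, 15.6% for Irf4 and 13.2% for Irf5, and the median coding locus was covered by 10.9%. The largest spread was that of Irf2, from 13.6% in HC 3 to 88.6% in CC_s 2. The Irf1 gene region spanned 70851 bp, the Irf2 gene region 128530 bp and the Irf9 gene region 67423 bp, while those of Irf8 (27471 bp) and Irf4 (10840 bp) were compact.

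**Figure D2:**
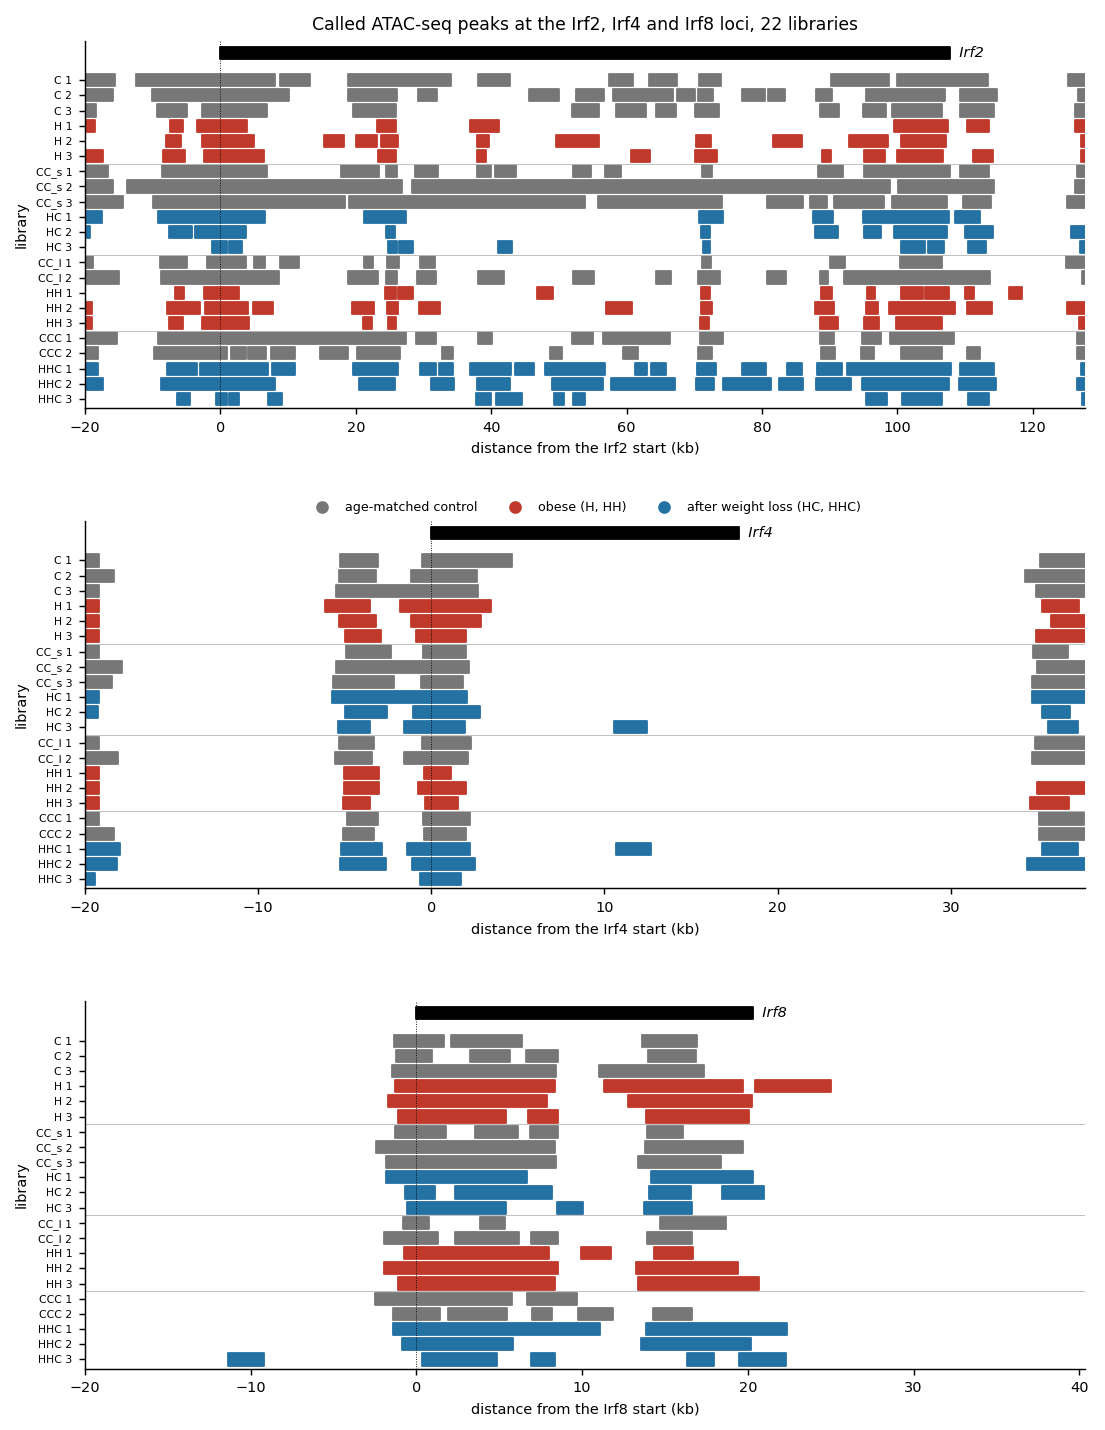
Called peaks at the Irf2, Irf4 and Irf8 loci, 1 row per library grouped by diet; the horizontal axis is the distance from the gene's start in kb. The peak upstream of Irf2 and the peak downstream of Irf4 are short or missing in many libraries of H, HC and HH. Peaks cover more of the Irf8 locus in every library of HH than in CC_l, while H overlaps C.

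Differences between groups were tested with limma across all regions, promoters or loci. A feature was called at an unadjusted p below 0.01 and a difference above 1 on the log2 scale (10 percentage points for covered share), and the p given is the one adjusted over all features. A call whose adjusted p is above 0.05 rests on the unadjusted rule alone. Only member regions above the floor in enough libraries could be tested, which left 14 of 22 in the pairs H with C, HC with CC_s and HH with CC_l, 15 in HHC with CCC and 17 when both durations were averaged. In H against C 2 of 14 were called, where 8.52% of all regions were. In HC against CC_s 2 of 14 were called against 2.54% of all, and in HH against CC_l 2 of 14 against 2.68%. In HHC against CCC none of 15 was called, against 0.706% of all. None had an unadjusted p below 0.05 there, against 6.14% of all regions. Averaged over both durations, 3 of 17 were called in the obese groups against 3.46% of all, and 2 of 17 in the weight loss groups against 1.94%. The calls were those of 3 regions, the one upstream of Irf2, the one downstream of Irf4 and the Irf8 gene region.

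Irf2, the repressor of the family, had a region of 12235 bp beginning 14406 bp upstream of the gene (chr8:46713091-46725325), with a peak in 20 of 22 libraries and no coding gene in it. Its signal was 16.98, 16.82 and 15.51 in C and 14.06, 14.01 and 15.03 in H. It was 16.74, 16.64 and 16.93 in CC_s and 14.41, 14.47 and 14.01 in HC. In both pairs every library after high-fat diet lay below every control library, and the HC libraries were still near the floor 8 weeks after the diet had ended.

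In the long arm the signal was 16.22 and 16.58 in CC_l and 14.01, 15.48 and 14.92 in HH. It was 16.65 and 16.48 in CCC and 16.26, 16.24 and 14.01 in HHC. No library of HH or HHC reached its controls, but 2 of the 3 HHC libraries lay just below them. The HHC library at 14.01 was HHC 3, whose adipocyte marker signal was the weakest of all, and its part in this value was not tested. Of 14 member regions tested in all 4 pairs, this was the 1 that was lower in every library of all 4 groups, against 1.71% of the 25683 regions so tested.

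The Irf2 upstream region fell by 2.06 ± 0.45 (SE) on the log2 scale in H against C (adjusted p = 0.0217 by limma). It fell by 2.47 ± 0.32 in HC against CC_s (adjusted p = 0.0689). H 2 and HH 1 had no peak here, HC 3 and HHC 3 had one outside their strongest regions, and all 4 were set to the floor, so the size of these differences depends on the floor. The difference was -1.59 ± 0.48 in HH (adjusted p = 0.242) and -1.06 ± 0.73 in HHC (adjusted p = 0.805), and neither was called. Averaged over both durations it fell by 1.83 ± 0.40 in the obese groups (adjusted p = 0.00783) and by 1.77 ± 0.40 in the weight loss groups (adjusted p = 0.0273). The weight loss difference minus the obesity difference was 0.06 ± 0.56 (adjusted p = 0.971), which does not show that the effects were equal.

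Peak length moved with the signal. Peaks covered 7.42 to 10.3 kb of the Irf2 upstream region in C and 0 to 3.51 kb in H, 7.72 to 12.2 kb in CC_s and 1.37 to 2.87 kb in HC. By the maximum signal in place of the total, the call was kept in HC (-1.86) and lost in H (-1.05). The H call was also lost without C 1, C 2, H 1 or H 2 (differences between -1.79 and -2.53 over all left-out libraries), and the HC call was kept without any 1 library.

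The Irf2 gene itself carried smaller differences. Its promoter signal was 18.58, 18.51 and 18.70 in CC_s and 17.29, 17.01 and 17.74 in HC, with no overlap, and fell by 1.25 ± 0.33 (adjusted p = 0.620). This call was lost without any 1 of CC_s 1, CC_s 2, CC_s 3, HC 1 or HC 2 (differences from -1.29 to -1.08). In H it was 17.07, 17.59 and 17.28 against 18.75, 18.14 and 17.06 in C, and these overlapped. The Irf2 gene region differed by -0.85 ± 0.16 in HC (adjusted p = 0.141), under the fold asked for, and by 0.19 ± 0.23 in HHC. Its downstream region, at 17260 bp from the gene's end and with a peak in all 22 libraries, stayed between 16.00 and 16.69 in every library.

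Coverage of the Irf2 locus was 42.7%, 88.6% and 79.4% in CC_s and 31.9%, 23.3% and 13.6% in HC. After quantile normalization across libraries it fell by 31.3 ± 5.28 percentage points (adjusted p = 0.488). In H it was 20.9%, 31.3% and 27.0% against 57.2%, 56.2% and 38.7% in C, a difference of -19.5 ± 7.37 points (adjusted p = 0.196) that was not called. HHC, at 57.9%, 59.6% and 19.5%, overlapped CCC at 52.9% and 35.4%.

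The weight loss differences of Irf2 were themselves compared between the arms. The HHC against CCC difference minus the HC against CC_s difference was 38.7 ± 10.7 points for the covered share (adjusted p = 1.00), the 1 of 8 loci called in this contrast against 0.381% of all. For the Irf2 gene region it was 1.03 ± 0.35 (adjusted p = 1.00), the 1 of 17 member regions called against 0.322% of all. The Irf2 upstream region gave 1.41 ± 0.79 (adjusted p = 1.00) and was not called.

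**Figure D3:**
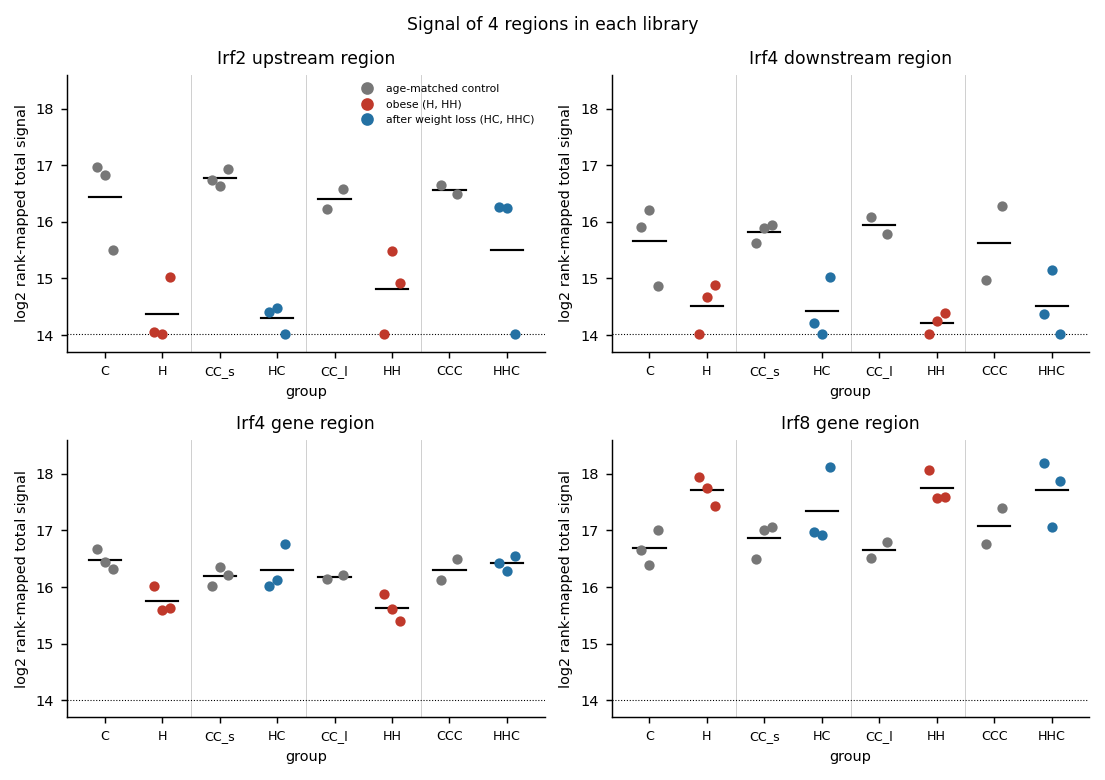
Rank-mapped log2 total signal (vertical axis) of 4 member regions in each library by group (horizontal axis); dots are libraries, bars are group means and the dotted line is the floor of 14.01. The Irf2 upstream region is below its control in every library of H, HC, HH and HHC, and the Irf8 gene region is above its control in every library of H and HH.

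Irf4, the member linked to adipocyte lipolysis, had a region of 10702 bp beginning 16546 bp downstream of the gene (chr13:30783523-30794224), with a peak in 20 of 22 libraries. Its signal was 15.63, 15.89 and 15.94 in CC_s and 14.21, 14.01 and 15.03 in HC. It was 16.09 and 15.79 in CC_l and 14.01, 14.24 and 14.39 in HH. Neither pair overlapped.

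In the other pairs the Irf4 downstream groups overlapped. The signal was 15.91, 16.22 and 14.87 in C against 14.01, 14.67 and 14.88 in H, and 14.97 and 16.29 in CCC against 14.38, 15.16 and 14.01 in HHC. The overlap between H and C came from C 3 alone.

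The Irf4 downstream region fell by 1.72 ± 0.32 in HH against CC_l (adjusted p = 0.162). In HC against CC_s it fell by 1.40 ± 0.39 (adjusted p = 0.213). Each of H, HC, HH and HHC had 1 library at the floor, on which the size of these differences depends. The difference was -1.14 ± 0.40 in H (adjusted p = 0.0827) and -1.11 ± 0.63 in HHC (adjusted p = 0.805). Averaged over both durations it fell by 1.43 ± 0.31 in the obese groups (adjusted p = 0.00799) and by 1.26 ± 0.31 in the weight loss groups (adjusted p = 0.0425). The last call was lost without CCC 2 (-0.93). The HC call was lost by the maximum signal (-1.12) and without each library of the pair but HC 3, and the HH call was lost without CC_l 1 (-1.57).

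The Irf4 gene region and promoter behaved otherwise after weight loss. The gene region was 16.67, 16.45 and 16.32 in C and 16.02, 15.59 and 15.63 in H, and 16.14 and 16.21 in CC_l and 15.89, 15.62 and 15.39 in HH. All obese libraries lay below their controls, by -0.64 ± 0.16 on average (adjusted p = 0.0172), which is under the fold asked for. HC (16.02, 16.13 and 16.77) and HHC (16.43, 16.29 and 16.55) overlapped CC_s (16.03, 16.36 and 16.21) and CCC (16.12 and 16.49), with an average difference of 0.11 ± 0.16 (adjusted p = 0.752). The weight loss difference exceeded the obesity difference by 0.75 ± 0.22 (adjusted p = 0.193).

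The Irf4 promoter followed the same order. It was 16.13, 15.82 and 16.22 in C against 15.42, 14.81 and 15.01 in H (-0.98 ± 0.21, adjusted p = 0.0715), and 15.52 and 15.57 in CC_l against 15.10, 14.74 and 14.87 in HH (-0.64 ± 0.20, adjusted p = 0.539). H and HH did not overlap their controls, and neither difference was called. The weight loss difference minus the obesity difference was 1.03 ± 0.34 (adjusted p = 0.518) and was called, the 1 of 8 member promoters so called against 1.01% of all. It lay just past the fold asked for, and 14 of the 22 single-library omissions ended the call (0.84 without HHC 3). No member region was called in that contrast, where 1.26% of all regions were. An unadjusted p below 0.05 was found for 3 of 17, against 10.2% of all regions. The Irf4 upstream region, which overlaps Dusp22, differed by -0.54 ± 0.15 in the obese groups (adjusted p = 0.0288) and by 0.07 in the weight loss groups.

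Irf8, the myeloid and dendritic cell factor, was the member whose gene region was called higher in the obese groups, by total signal. Its region (chr8:120733883-120761353) holds the whole gene and lies within the annotated gene Gm20388. The signal was 16.66, 16.39 and 17.01 in C and 17.95, 17.75 and 17.43 in H. It was 16.52 and 16.80 in CC_l and 18.07, 17.58 and 17.60 in HH. Every obese library lay above every control library of its age, and how many of all regions did likewise was not counted.

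In the weight loss groups the Irf8 gene region was 16.98, 16.93 and 18.12 in HC against 16.50, 17.02 and 17.06 in CC_s. It was 18.20, 17.05 and 17.88 in HHC against 16.76 and 17.39 in CCC. Both pairs overlapped, and the high HC value was that of HC 3, the library with the lowest median maximum signal in its group.

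The Irf8 gene region rose by 1.02 ± 0.20 in H (adjusted p = 0.0162) and by 1.08 ± 0.21 in HH (adjusted p = 0.168), and by 1.05 ± 0.25 in both (adjusted p = 0.0120). The weight loss differences were 0.48 ± 0.34 in HC (adjusted p = 0.590), 0.63 ± 0.39 in HHC (adjusted p = 0.805) and 0.56 ± 0.25 in both (adjusted p = 0.264). The change between the obese and the weight loss contrast was -0.49 ± 0.35 (adjusted p = 0.630), so the loss of the call was not itself shown as a difference.

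Peak length moved with the Irf8 difference too. Peaks covered 14.6 to 22.6 kb of the region in H against 9.46 to 16.2 kb in C, and 13.0 to 16.8 kb in HH against 7.09 to 11.4 kb in CC_l. The region's maximum divided by the library's median was 1.40 to 1.50 in H against 1.68 to 1.95 in C, while in HH (1.44 to 2.17) and CC_l (1.36 to 1.95) it overlapped. By the maximum signal the difference was -0.09 in H and 0.31 in HH, and scaling by the library median gave 0.74 and 0.92, so that no call was left under either. Averaged over both durations, the call was also lost without C 2, H 1, CC_l 1 or HH 1 (0.97 without HH 1). The H call was lost without C 2 (0.88) or H 1 (0.90), and the HH call without CC_l 1 (0.94), CC_l 2 (1.23) or HH 1 (0.92).

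Peak cover of the Irf8 locus was 17.6%, 15.7% and 26.8% in C and 37.5%, 28.2% and 24.1% in H, which overlap. It was 11.8% and 18.9% in CC_l and 21.5%, 27.6% and 27.9% in HH, which do not. The quantile-normalized share rose by 13.3 ± 4.13 points over both durations (adjusted p = 0.0868), and by 33.7 points within the gene span alone. Without quantile normalization the difference was 10.1 points and not called. The call was also lost without C 2, H 1, CC_l 1, HH 1 or HH 3 (11.6 to 12.9 points). In the weight loss groups the quantile-normalized difference over both durations was 10.8 points and was not called. A summit 4856 bp into the gene (chr8:120741214) was seen in 11 libraries.

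The promoter of Irf8 was 16.37, 15.86 and 16.56 in C and 16.98, 17.16 and 16.63 in H. In CC_l it was 15.83 and 16.35, and in HH 18.10, 17.07 and 16.97. No obese library overlapped its controls, and the average difference of 0.98 ± 0.31 (adjusted p = 0.131) fell just short of the fold asked for. After weight loss the promoter mean was 16.82 in HC against 16.34 in CC_s, and 16.90 in HHC against 16.67 in CCC. Beside this, the macrophage markers, whose cells use Irf8, had a mean promoter signal of 15.04 to 15.38 in C, 14.75 to 14.95 in H, 14.87 to 14.97 in CC_l and 14.85 to 14.94 in HH. The dendritic cell markers lay between 14.31 and 14.67 in all libraries, close to the floor, and the lymphocyte markers between 14.30 and 14.66. The lower macrophage mean in H came mostly from Cd14 (mean 18.08 in C and 14.37 in H) and Fcer1g (17.29 and 15.64), while the promoter of Csf1r, the macrophage growth factor receptor, was at 14.51 in C and 15.01 in H. In HH against CC_l, Csf1r was at 14.90 against 14.57 and Cd68, a lysosomal protein of macrophages, at 18.09 against 17.69, while Fcer1g (16.12 against 16.68) and Cd14 (15.01 against 15.69) lay lower in HH, and the median difference of the 4 markers tested was -0.12. Of the 8 dendritic cell markers 7 were at the floor in all C and H libraries, so that list could show little. The part of these cells in the Irf8 result was not tested.

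**Figure D4:**
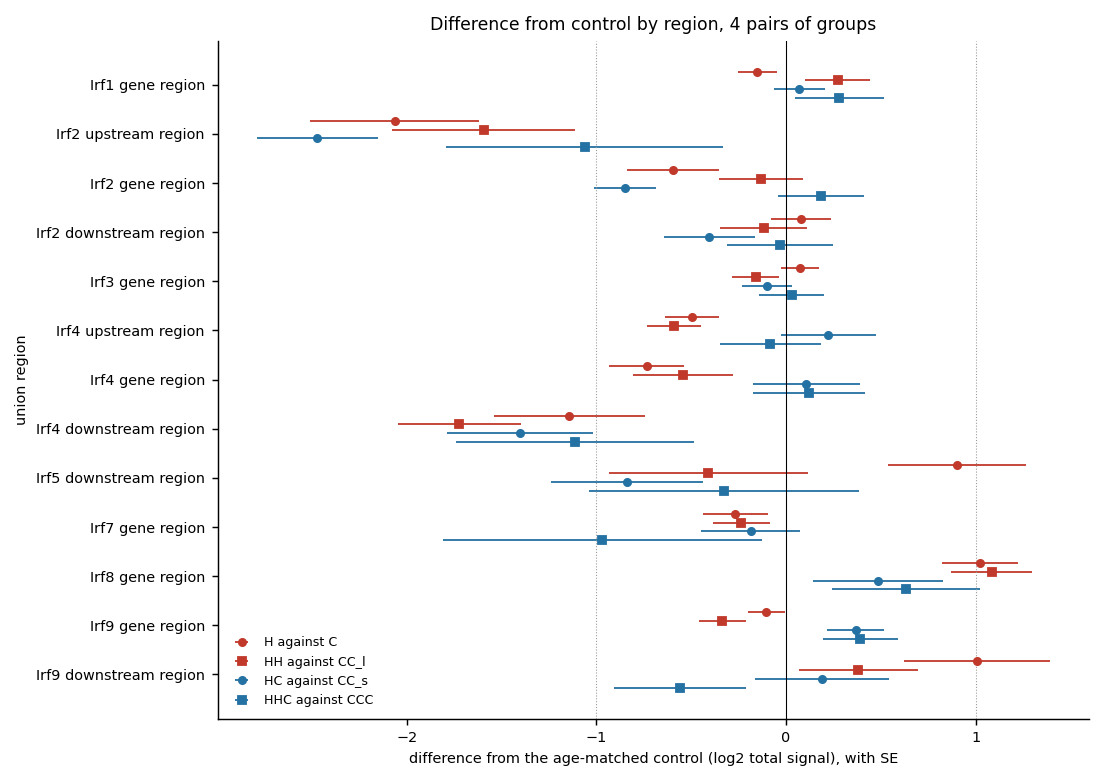
Difference from the age-matched control on the log2 scale (horizontal axis) of 13 member regions (vertical axis) in the 4 pairs of groups; points are limma estimates, bars are 1 SE and dotted lines mark a difference of 1 in each direction. The Irf2 upstream and Irf4 downstream regions lie furthest to the left and the Irf8 gene region lies near 1 in H and HH.

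The gene regions of the sensor-activated Irf3 and Irf7 and of Irf1 were not called in any obese or weight loss group. The Irf3 gene region lay between 20.49 and 20.79 in all 22 libraries. The Irf7 gene region lay between 17.03 and 18.21 in 21 libraries and at 15.09 in HHC 3, the library without an Irf7 promoter peak. The Irf7 promoter differed by -0.87 ± 0.62 in HH against CC_l (adjusted p = 0.813) and by -1.16 ± 1.06 in HHC against CCC (adjusted p = 0.921), with 1 low library in each (15.38 in HH 1 and 14.30 in HHC 3). The Irf1 gene region lay between 18.99 and 20.06, with the highest value in HHC 1.

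Irf9, which acts downstream of the type I interferon receptor, had a gene region shared with Psme1, Psme2, Rnf31, Dcaf11 and other genes. It was 19.92 and 19.80 in CC_l and 19.44, 19.60 and 19.53 in HH, without overlap (-0.34 ± 0.12, adjusted p = 0.314). After weight loss it was 20.01, 19.58 and 19.73 in HHC against 19.44 and 19.32 in CCC and 19.77, 19.63 and 19.86 in HC against 19.57, 19.35 and 19.23 in CC_s. Every weight loss library lay above its controls, by 0.38 ± 0.09 on average (adjusted p = 0.0320), which is under the fold asked for and was not called. CCC was itself lower than CC_l by 0.48 ± 0.12 (adjusted p = 0.471), so the control level moved as well. The summit of this shared region lay in an exon of Dcaf11, at -42870 bp from the Irf9 start. The mean signal of the Irf9 promoter was not higher after weight loss. It was 16.24 in HC against 16.32 in CC_s, and 16.94 in HHC against 17.60 in CCC.

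A weak region downstream of Irf9, in Ipo4, had peaks in 14 libraries. These were 6 control libraries (1 of C, 3 of CC_s, 1 of CC_l and 1 of CCC), 3 of H, 2 of HC, 2 of HH and 1 of HHC. Its signal was 15.52, 15.58 and 14.07 in H against 14.01, 14.12 and 14.01 in C, a difference of 1.01 ± 0.38 (adjusted p = 0.106) that was not called.

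Irf5, the inflammatory member, had 6 regions, with peaks in 1, 4, 1, 8, 17 and 20 libraries. The most frequent lay in Tnpo3 downstream of the gene and was 16.17, 15.29 and 15.05 in H against 14.18, 14.57 and 15.05 in C (0.90 ± 0.36, adjusted p = 0.120). In HC against CC_s it differed the other way, by -0.84 ± 0.40 (adjusted p = 0.448), and neither was called.

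At promoters and over whole loci few members were called. No promoter of 7 tested was called in H against C, HH against CC_l or HHC against CCC. Of all promoters 3.99%, 1.8% and 0.859% were called there. In the same order 2, 2 and none of the 7 had an unadjusted p below 0.05, against 21.2%, 7.41% and 4.24% of all promoters. In HC against CC_s 1 of 7 was called, that of Irf2, against 1.37% of all. Over both durations none of 8 was called in the obese groups (2.49% of all called) or in the weight loss groups (1.97% called). In the same order 2 and 1 had an unadjusted p below 0.05, against 14.9% and 14.6% of all.

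For covered share none of the 8 loci was called in H against C, HH against CC_l or HHC against CCC. Of all loci 5.72%, 1.73% and 0.389% were called there. In the same order 4, 1 and none of the 8 had an unadjusted p below 0.05, against 20.6%, 9.21% and 3.24% of all loci. Irf2 was the 1 of 8 called in HC against CC_s, against 1.24% of all. Irf8 was the 1 of 8 called over both durations in the obese groups, against 4.83% of all. None was called in the weight loss groups (3.21% of all called), where 2 had an unadjusted p below 0.05, against 15.6% of all. Between the younger control groups Irf5 was the 1 of 8 loci called, against 0.391% of all, with 2.99% to 10.3% covered in C and a median of 32.1% in CC_s, without overlap (13.8 ± 3.66 points after quantile normalization, adjusted p = 0.889).

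The Irf1 promoter was the 1 of 7 called between the older control groups, against 1.19% of all promoters. It was 15.06 and 16.09 in CC_l and 18.05 and 18.82 in CCC, and rose by 2.86 ± 0.48 (adjusted p = 0.506). CCC mice were 8 weeks older and had also changed to the chow of the last weeks, and these cannot be told apart. HHC, of the same age as CCC, was at 18.40, 16.95 and 17.19, and HH, of the same age as CC_l, at 15.92, 17.04 and 15.52. With 2 libraries in each control group, the spread behind this comparison is poorly known.

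Genes up- and downstream of the factors gave the setting. Of 23 interferon-stimulated genes with a promoter in the annotation, 17 could be tested in H against C, and 4 rose while none fell. Of all promoters 3.99% were called in either direction, and the median difference was 0.29 against 0.03 over all promoters. Parp9 and Dtx3l had the same values in C and H and are both among the 4. Psmb9 and Tap1 also had the same mean in every group, and both enter the list's counts, means and medians. In HH against CC_l 2 of 17 rose (median 0.62 against 0.00, 1.8% of all called), and over both durations 4 of 20 rose in the obese groups (median 0.34 against 0.01, 2.49% of all called). Between the older control groups 2 of 15 also rose in CCC against CC_l (median 0.23 against -0.05, 1.19% of all called). In the weight loss groups none of 20 was called (median 0.35 against 0.04), so the list's median was no smaller there. None was called in HC against CC_s (16 tested) or HHC against CCC (20 tested). In the weight loss difference minus the obesity difference 1 of 20 was called lower, against 1.01% of all promoters. The mean over the list was 15.18 to 15.21 in C and 15.51 to 15.64 in H, and 15.14 to 15.16 in CC_l and 15.53 to 15.89 in HH. After weight loss it was 15.28 to 15.55 in HC against 15.19 to 15.24 in CC_s, also without overlap, and 15.36 to 16.50 in HHC against 15.32 to 15.51 in CCC.

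Ifit2, an antiviral gene induced by interferon, was 14.30, 14.95 and 15.09 in C and 16.48, 16.13 and 16.24 in H. It was 14.40 and 14.30 in CC_l and 17.16, 15.79 and 16.30 in HH, without overlap in either pair. It rose by 1.78 ± 0.26 over both durations (adjusted p = 0.00263) and differed by 0.64 ± 0.26 after weight loss (adjusted p = 0.284). The other genes that rose in the obese groups were Ifit3 (1.16 ± 0.38, adjusted p = 0.141) and Parp9 (1.18 ± 0.29, adjusted p = 0.0443) with Dtx3l, which share a promoter and count as 1 signal. After weight loss Parp9 differed by 0.03 and Ifit3 by 0.14.

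Of 12 genes of interferon receptors and signalling, all tested, 1 rose in H against C (3.99% of all promoters called). None was called in the other pairs or in the obese or weight loss groups over both durations. In the weight loss difference minus the obesity difference 1 of 12 was called lower, against 1.01% of all promoters. The gene that rose in H was Tyk2, a kinase bound to the type I interferon receptor. It was at 16.22, 16.05 and 16.53 in C and 17.74, 17.59 and 17.51 in H (1.35 ± 0.19, adjusted p = 0.0259). Of 15 matched genes of nucleic acid sensing and IRF activation, 13 could be tested in H against C and 1 fell, against the same 3.99%. It was Tlr9, a DNA sensor, at 18.82, 19.13 and 19.06 in C and 14.70, 14.30 and 14.98 in H. All but 1 of the other control libraries were also near the floor (14.30 to 14.92, with 18.97 in CC_s 2), and the Tlr9 difference was thus set by the C libraries.

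**Figure D5:**
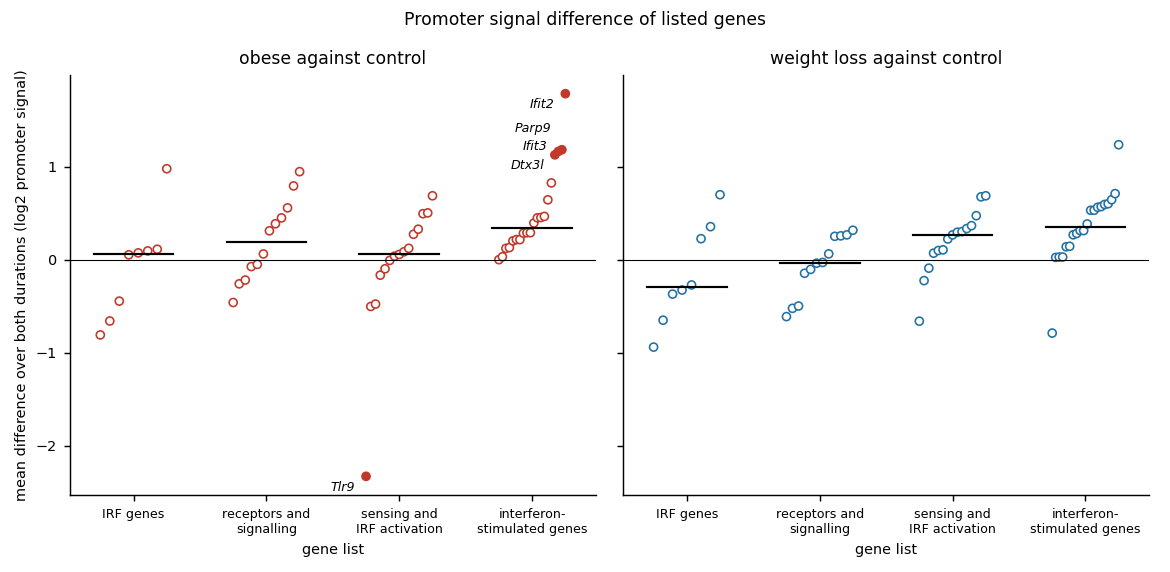
Promoter signal difference on the log2 scale (vertical axis) of the genes of 4 lists (horizontal axis), averaged over both durations, for the obese groups and the weight loss groups against their controls; each dot is a gene, filled where called, and bars are list medians. Ifit2, Ifit3, Parp9 and Dtx3l are the filled dots among interferon-stimulated genes in the obese groups, and that list has none in the weight loss groups.

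Of the 19 interferon-stimulated genes with a RefSeq promoter, 10 held the ISRE core that the Irf2 promoter also holds, 6 held GAS letters and 6 held AP-1 letters. These shares are given beside the 3.43%, 8.29% and 7.81% of all RefSeq promoters, with no test.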

How the data were processed

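ATAC-seq peak lists of 22 libraries in 8 groups were used, 1 list per library, and the labels call the replicates biological. Per the submitters' processing notes, the authors used Trim Galore 0.6.6, Bowtie2 2.4.4, SAMtools 1.13, bedtools 2.30 and SEACR 1.3 on mm10 (GRCm38). According to the study's methods, peaks were called on each library's own coverage in stringent mode with a numeric threshold of 0.01, and replicates were not pooled. Whether the removal of problem regions preceded these lists is not stated in the sources used here. The deposited values are total signal (coverage summed over a peak) and maximum signal, with no normalization stated by the authors. A longer peak has more total signal at equal height, so peak length enters every value given here. Lists of peaks hold no read counts, so no depth, counting interval or detection limit can be given. The number of unmatched columns was 0, and the highest share of identical peaks between 2 libraries was 0.00693%, so none was a duplicate.

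Peaks overlapping by at least 1 bp were merged into union regions. The log2 total signal was rank-mapped to the mean of the 22 libraries over the 30083 strongest regions or 12406 strongest promoters, the smallest number in any library. Covered share was quantile-normalized over all coding loci. To be tested, a feature had to exceed the floor in a number of libraries no smaller than the smaller group. Tests used limma 3.58.1 in R 4.3.3 (lmFit, then eBayes with trend), fitted to the 2 groups of a pair, or to all 22 libraries for averages over both durations. P-values are two-sided and were adjusted by Benjamini-Hochberg over all features of a kind. Python 3.11.15, numpy 2.4.6 and pandas 2.3.3 were used for the rest. The code was tested on simulated data before use.

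The 8 genes and the gene lists were chosen with earlier results of these data known. All 8 members are named. At each locus the regions named are those over the member's own promoter and the 1 with the smallest p; others are named for their counts or their overlap and were chosen after their values were seen. From the lists, called genes are named, up to 4 per list. Alternatives were the maximum signal, median scaling, stricter peak lists, no quantile normalization, the gene span alone, another filter, all libraries in 1 fit, a replicate block, leaving out each library, and leaving out 4 weak libraries together.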

Additional observations from a re-analysis of the deposited data

Results flagged for a closer look

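A difference between 2 arms or 2 contrasts met the rule for a closer look in 3 cases, each by a limma interaction contrast at an unadjusted p below 0.01, and none passed after adjustment over all features. For the Irf2 gene region, the HHC against CCC difference exceeded the HC against CC_s difference by 1.03 on the log2 scale (adjusted p = 1.00). The covered share of the Irf2 locus differed between the same contrasts by 38.7 percentage points (adjusted p = 1.00). At the Irf4 promoter, the weight loss difference exceeded the obesity difference by 1.03 (adjusted p = 0.518). Their causes were not tested, and duration of the diet and set of libraries cannot be told apart in the Irf2 values.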

How the results depend on the processing

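Counts of called member features were recomputed under each alternative. By the maximum signal the regions called numbered 0 in H against C (2 as reported), 1 in HC against CC_s (2), 1 in HH against CC_l (2) and 1 in both obese groups (3), and the promoters called numbered 0 in HC and 0 in the change between obesity and weight loss (1 each). With median scaling the regions called in HH numbered 1, and the promoters called numbered 1 in H (0) and 1 in both weight loss groups (0). With the 20000 strongest regions the count was 1 in HC and 1 in both weight loss groups (2 each). With the 10000 strongest promoters, an alternative chosen after seeing the data in place of the planned 20000, which no library has, the change between obesity and weight loss had 0 (1). For covered share, the values without quantile normalization gave 1 in H (0) and 0 in both obese groups (1), the gene span alone gave 1 in H and 1 in HH (0 each), and the 20000 strongest peaks gave 1 in H (0), 2 in HH (0), 2 in both obese groups (1) and 1 in both weight loss groups (0). Without the 4 weak libraries HC 3, HHC 3, HH 1 and CCC 2, also chosen after seeing the data, regions in both weight loss groups numbered 1 (2) and promoters in the change between obesity and weight loss numbered 0 (1). The Irf8 gene region was the 1 value that changed sign, to a difference of -0.0896 in H against C by the maximum signal.

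With a replicate block the regions called in HC numbered 1 (2), promoters 0 in HC (1), 1 in both obese groups (0) and 0 in the change between obesity and weight loss (1), and covered loci 0 in both obese groups (1). The deviations of same-numbered libraries correlated above 0.1 in a minority of pairs (10 pairs, r from -0.179 to 0.189 over regions with 1 above 0.1, from -0.292 to 0.188 over promoters with 3, and from -0.200 to 0.259 over covered share with 2), so the numbers were not taken as pairs.

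Leaving out 1 library gave 0 to 3 called regions in H, 1 to 2 in HC, 0 to 3 in HH, 0 to 1 in HHC, 2 to 3 in both obese groups, 1 to 2 in both weight loss groups and 0 to 1 in their difference. Promoters gave 0 to 1 in H, HC, both obese groups, both weight loss groups and their difference, and 0 to 0 in HH and HHC. Covered loci gave 0 to 2 in H, 1 to 1 in HC, 0 to 0 in HH and HHC, 0 to 2 in both obese groups and 0 to 1 in both weight loss groups. Over all alternatives together, 161 of the other single values kept their side of the threshold, 39 gained the call and 66 lost it. The causes were not tested. Peak lists show no depth, and groups of 2 or 3 libraries limit all tests.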

Other observations

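For the 6 members above the floor in all 22 libraries, the promoter whose signal was most alike among 9035 genes was found by Pearson's r over the 22 libraries. Irf2 was most like Igf1, a growth factor (r = 0.871), Irf8 most like Fos, an immediate early gene (r = 0.843), and Irf3 most like Uvrag (r = 0.794). Irf4 was most like Tbc1d2 (r = 0.775), Irf1 like Prrc2b (r = 0.770) and Irf9 like Rai1 (r = 0.665). The libraries share diet groups and differ in peak length, both of which enter these values, and each is the highest of many, so they are descriptions only.

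Among the marker genes, the promoter of Cd14, a receptor for bacterial lipopolysaccharide, was 18.14, 18.36 and 17.73 in C and 14.30, 14.31 and 14.51 in H, and fell by 3.71 ± 0.20 on the log2 scale (adjusted p = 0.00116 by limma). Over both durations it fell by 2.19 ± 0.32 in the obese groups (adjusted p = 0.00263). In HH against CC_l alone the Cd14 difference was -0.68 ± 0.26 (adjusted p = 0.653) and was not called. Controls outside C lay at 15.60 to 16.15, apart from CC_s 2 at 17.76, so the average leaned on the high C libraries. The promoter of Fabp4, the adipocyte fatty acid carrier, rose by 1.12 ± 0.15 in H (adjusted p = 0.0259) and by 1.48 ± 0.41 in HC (adjusted p = 0.623), the latter called by the unadjusted rule alone. The promoter of Pparg, the master regulator of adipocytes, was 21.04, 20.86 and 21.72 in CC_s and 18.39, 18.82 and 18.24 in HC and fell by 2.73 ± 0.31 (adjusted p = 0.0469), while it differed by -0.42 ± 0.19 in H (adjusted p = 0.267), by 1.14 ± 0.44 in HH (adjusted p = 0.662) and by -1.66 ± 1.12 in HHC (adjusted p = 0.921). The promoter of Cd79a, a B cell gene, fell by 2.62 ± 0.29 in HHC against CCC (adjusted p = 0.285) from 16.80 and 17.32 to 14.30, 14.30 and 14.70, and was at the floor in most other libraries. The values of 14.30 are the floor, on which the size of this fall and its SE depend.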
